A study of Homo sapiens with 12 samples.

Results

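Untreated HepG2 cells are described here from the 3 samples taken at 0 min, out of 12 samples in the series. HepG2 is an established human liver cancer line that keeps many functions of the hepatocyte. The samples were chosen by their label and not by measured values, though earlier results of these data were known. The other 9 samples are HepG2 cells given the herbicide 2,4-D at 0.001 µM and taken after 10, 30 or 360 min, in groups of 3 biological replicates. No untreated sample kept for 10, 30 or 360 min was analysed here. Every sample is the same cell line, with no genetic change named in the labels, and all were harvested by trypsin-EDTA digestion. Polyadenylated RNA was sequenced and counted per gene.

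A hepatocyte makes most of the proteins of blood plasma, packs lipids into lipoproteins, clears drugs and ammonia, and makes bile acids. These tasks are set up by a small group of transcription factors, among them HNF4A, the FOXA factors and CEBPA. Liver cancer lines often keep the secretory part of this programme, switch fetal genes such as AFP and GPC3 back on, and lose part of the drug-clearing and nitrogen-clearing enzymes.

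The untreated samples held 37234649, 66761667 and 52010601 counts (replicates 1, 2 and 3), within the range of 29766148 to 83539763 over all 12. Levels are given as counts per 1000000 counts of a sample (CPM), scaled by TMM, a factor that corrects for a few dominant genes. Levels of different genes are compared only as TPM, which divides each count by the summed exon length of the gene. TPM sums to 1000000 over all annotated genes, mitochondrial ones included, and uses no TMM factor. The SD of a TPM thus also holds shifts of that sum between samples, as for IPO13 (mean ± SD 34.07 ± 0.0117 CPM but 24.6 ± 1.17 TPM). Values in threes are always in the order of replicates 1, 2 and 3. A level of 3 counts, taken as the floor, equalled 0.0803, 0.0447 and 0.0570 CPM, and a count of 0 allows a level of up to that value (counting error only). Genes with no count are written as listed at 0, and whether such a 0 comes from the cells or from the counting was not tested. Replicate 1 stood apart in its mitochondrial share of counts, at 4.39% against 2.61% and 2.66%, with the exposed samples between 2.52% and 4.07%. The main results that rest on replicate 1 are therefore also given without it.

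The 4 genes that mark hepatocyte origin were all measured, at very different levels. ALB, which encodes serum albumin (GRCh38 chromosome 4, 73397114 to 73421412, plus strand), stood at 7867, 8828 and 8921 CPM. APOB, the structural protein of very low density lipoprotein (chromosome 2, 21001429 to 21044073, minus strand), stood at 8336, 9648 and 8991 CPM. AFP, the main plasma protein of the fetus (chromosome 4, 73431138 to 73456174, plus strand), stood at 1355, 1512 and 1569 CPM. All 3 of these genes were lowest in replicate 1, by a small margin. FGB, the fibrinogen beta chain (chromosome 4, 154562956 to 154571086, plus strand), was far lower, at 24.2, 25.2 and 26.8 CPM. Per length, ALB reached 9304 ± 1055 TPM (SD, n = 3), APOB 2231 ± 253, AFP 1669 ± 200 and FGB 34.5 ± 3.27. They ranked 2, 22, 39 and 4527 among nuclear protein-coding genes. The label of a hepatocyte-derived line thus holds for ALB, APOB and AFP at high level and for FGB at a level near the median of 24.5 TPM of the protein-coding genes at 1 CPM or more.

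The promoters of ALB, AFP and FGB are shown because HNF1 factors, which open liver genes, bind motifs built on the letters GTTAAT. Each sequence runs 5′ to 3′ from 250 bases before to 50 bases after the RefSeq start (build GRCh38.p14), at chr4:73404037-73404336, chr4:73435971-73436270 and chr4:154562730-154563029, all on the plus strand. Capitals mark GTTAAT on either strand.
ALB promoter: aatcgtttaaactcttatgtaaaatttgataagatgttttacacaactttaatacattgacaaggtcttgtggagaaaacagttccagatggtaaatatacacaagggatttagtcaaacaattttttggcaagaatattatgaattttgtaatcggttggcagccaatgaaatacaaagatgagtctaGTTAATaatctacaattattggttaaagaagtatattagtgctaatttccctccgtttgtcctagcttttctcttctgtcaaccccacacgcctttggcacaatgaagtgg
AFP promoter: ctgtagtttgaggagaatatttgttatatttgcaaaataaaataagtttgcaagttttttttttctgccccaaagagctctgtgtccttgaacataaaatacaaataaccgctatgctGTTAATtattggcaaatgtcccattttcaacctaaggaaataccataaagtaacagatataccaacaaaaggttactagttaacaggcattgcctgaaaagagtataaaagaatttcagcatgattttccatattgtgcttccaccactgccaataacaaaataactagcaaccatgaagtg
FGB promoter: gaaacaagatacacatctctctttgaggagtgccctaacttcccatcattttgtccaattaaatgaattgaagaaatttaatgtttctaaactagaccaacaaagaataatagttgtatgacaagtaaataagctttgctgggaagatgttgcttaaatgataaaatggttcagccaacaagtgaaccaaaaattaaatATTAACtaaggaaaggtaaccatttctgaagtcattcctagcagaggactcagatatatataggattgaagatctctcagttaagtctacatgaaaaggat

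Each of these 3 windows held the letters 1 time. They were found in 6.88% of the 35116 promoter windows in the RefSeq table, or 8.27% of its 27305 genes. Among 26 plasma protein genes with a window, 6 held them (23.1%), and among 59 cytosolic ribosomal protein genes none did. A match is a description of the letters, and binding was not measured.

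Of 60612 gene rows, 13266 reached 1 CPM in all 3 untreated samples, and 11581 of these were protein-coding. That is 58.3% of the 19874 protein-coding rows, while 5589 rows (28.1%) had at most 3 counts in each sample. At 10 CPM or more in all 3 samples there were 9496 genes, at 100 CPM 2105, and at 1000 CPM 71. Long noncoding RNAs were sparse: 261 of 7519 lincRNA rows and 504 of 5554 antisense rows reached 1 CPM. Protein-coding genes took 97.1%, 97.3% and 97.2% of counts. The 10 most counted genes took 7.15%, 7.08% and 7.02%, and the 100 most counted took 21.6%, 20.8% and 20.6%.

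By TPM the top of the nuclear protein-coding genes mixed secreted liver proteins with translation, glycolysis and iron storage. FTL, the light chain of the iron store ferritin (chromosome 19, 48965301 to 48966878), led at 19659 ± 171 TPM, with 4938, 4637 and 4546 CPM. ALB came next, then EEF1A1, which carries aminoacyl-tRNA to the ribosome, at 7398 ± 600 TPM. The high-density lipoprotein proteins APOA2 and APOA1 followed at 5598 ± 564 and 4362 ± 331 TPM, around the glycolytic enzyme GAPDH at 4440 ± 279 and the chaperone HSP90AB1 at 4426 ± 334. RPS12, a protein of the small ribosomal subunit, reached 4166 ± 171 TPM. Next stood LYZ at 3828 ± 75.0, the fetal plasma protein AHSG at 3345 ± 305, the glycolytic enzyme ENO1 at 3262 ± 251 and SERPINA1, the plasma inhibitor of neutrophil elastase, at 3232 ± 95.9. GPC3, a cell-surface proteoglycan of fetal liver and liver cancer, reached 3138 ± 169 TPM, ahead of the actin-binding TMSB10 at 2954 ± 141 and the elongation factor EEF2 at 2558 ± 146. Neighbours in this order often differed by less than their SD, as APOA1, GAPDH and HSP90AB1 did, though these SDs also hold the shift of the TPM sum between samples. With the length of the longest transcript in place of the summed exons, 12 of these 15 genes stayed among the highest 15.

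**Figure D1:**
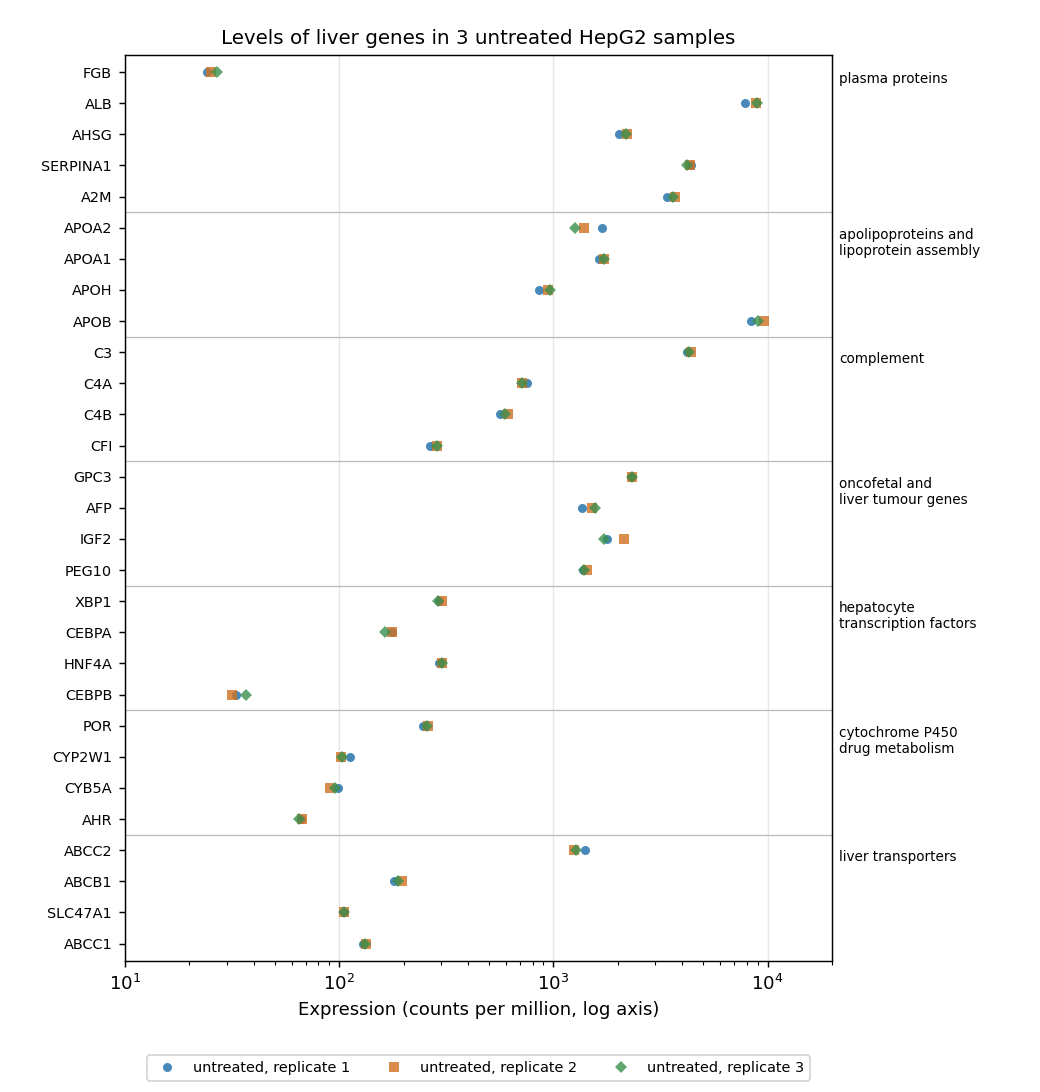
Levels of 29 genes of liver function in the 3 untreated samples; the horizontal axis is CPM on a log axis, each point is 1 sample, and genes are grouped by list with the 4 highest TPM of each list plus FGB. For most genes the 3 points nearly coincide, and the widest gaps among the genes drawn are those of APOA2 (1686, 1389 and 1267 CPM) and IGF2 (1773, 2136 and 1720 CPM).

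Plasma protein genes were mostly on. Of 38 on the list, 27 reached 1 CPM in all 3 samples, 3 were at or under the floor, and together they took 2.95%, 3.11% and 3.12% of all counts. SERPINA1 stood at 4415, 4326 and 4210 CPM. AHSG stood at 2027, 2201 and 2193 CPM, and the protease inhibitor A2M at 3397, 3708 and 3627 CPM. At the other end, the acute-phase proteins CRP and APCS were listed at 0, and GC, the vitamin D carrier, averaged 0.0367 CPM. The median SD of log2 CPM over the 27 genes was 0.0381, against 0.0438 for all genes between 100 and 300 CPM, the range of the list's median of 148 CPM. SERPINA3, an acute-phase inhibitor of proteases, spread most, at 268, 375 and 304 CPM.

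Lipoprotein genes followed the same pattern, with 22 of 26 at 1 CPM or more. APOA2 was highest in replicate 1, at 1686 against 1389 and 1267 CPM, whereas APOB was lowest there. APOA1 stood at 1632, 1719 and 1719 CPM, and APOH, a phospholipid-binding plasma protein, at 858, 946 and 970 CPM. APOC3, which slows the clearance of triglyceride-rich particles, stood at 148, 126 and 123 CPM. APOC4 and LPA, the protein of lipoprotein(a), were listed at 0.

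Clotting and complement genes were uneven. F2, which encodes prothrombin, stood at 485, 485 and 480 CPM and the anticoagulant PROC at 150, 147 and 147. Of 18 clotting genes, 13 reached 1 CPM, while F9, the haemophilia B gene, was listed at 0 and PLG, the precursor of plasmin, averaged 0.0970 CPM. C3, the hub of complement, stood at 4192, 4404 and 4288 CPM. The near-identical C4A and C4B were counted at 753, 712 and 712 and at 563, 614 and 593 CPM, and how reads were divided between the pair is uncertain. Of 21 complement genes 16 reached 1 CPM, and C9, of the membrane attack complex, was listed at 0.

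Fetal and tumour genes were strongly expressed. Of 23, 17 reached 1 CPM, and their counts were 0.902%, 0.975% and 0.938% of the total. GPC3 stood at 2298, 2331 and 2321 CPM. IGF2, the fetal growth factor, stood at 1773, 2136 and 1720 CPM, with replicate 2 highest, and the retrotransposon-derived PEG10 at 1371, 1436 and 1396 CPM. SPINK1, REG3A and MAGEA1 were listed at 0.

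Among 22 hepatocyte transcription factors 21 reached 1 CPM. HNF4A, a nuclear receptor that holds the hepatocyte programme together, stood at 293, 303 and 302 CPM, and CEBPA at 177, 177 and 163. XBP1, the factor of secretory capacity, stood at 294, 302 and 291 CPM. NR5A2, a receptor that drives bile acid genes, was the exception at a mean of 0.414 CPM. Of 34 nuclear receptors 27 reached 1 CPM, and the median of the list was 8.88 TPM, against 34.9 TPM for the transcription factors. NR0B2, a repressor of bile acid synthesis, led per length at 222 ± 7.18 TPM (74.2, 65.9 and 69.8 CPM), and the progesterone receptor PGR was listed at 0.

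The drug metabolism lists had the smallest share of genes on among the liver lists. Of 31 genes of the cytochrome P450 list, 17 reached 1 CPM, with a median of 2.02 CPM. The highest per length were POR, the electron donor of all microsomal P450 enzymes (245, 259 and 258 CPM), and CYP2W1, a fetal and tumour P450 (112, 102 and 103 CPM). AHR, the dioxin receptor, stood at 66.2, 66.8 and 65.0 CPM, and its target CYP1A1 at 2.97, 3.04 and 2.13. CYP2C19 and CYP2A6, which clear drugs in adult liver, were listed at 0. CYP3A4 and CYP1A2, named here after their values were seen, averaged 0.0570 and 0.0389 CPM. Of 35 conjugating enzymes in the table, 18 reached 1 CPM. GSTO1, a glutathione transferase, stood at 297, 280 and 284 CPM, and SULT1A1, a sulfotransferase, at 238, 247 and 245, whereas GSTP1, UGT1A4 and UGT1A9 were listed at 0.

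Transporters ranged from no count to over 1000 CPM. ABCC2, which exports conjugates into bile, stood at 1413, 1248 and 1280 CPM, and the drug pump ABCB1 at 181, 197 and 189 CPM. SLC47A1, an exporter of organic cations, was one of the 5 genes of smallest spread, at 106.0, 106.0 and 105.9 CPM. SLC10A1 and SLCO1B1, which take bile acids and drugs up from blood, were listed at 0. Among 24 transporters 18 reached 1 CPM.

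Bile acid and nitrogen metabolism were partly on. FGFR4, the receptor that restrains bile acid synthesis, stood at 540, 571 and 569 CPM, and CYP27A1, which starts the acidic route, at 161, 164 and 165. CYP7A1, the rate-limiting enzyme of the classic route, averaged 0.0328 CPM and CYP7B1 was listed at 0, so that 10 of 16 genes of the list reached 1 CPM. GLUD1, which releases ammonia from glutamate, stood at 980, 1047 and 1027 CPM, and HPD, of tyrosine breakdown, at 450, 461 and 444 CPM. OTC, of the urea cycle, averaged 0.0432 CPM, SDS 0.0249 and TDO2 0.0375, while 27 of 32 genes of nitrogen metabolism reached 1 CPM.

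Most genes of sugar and lipid metabolism were on. GAPDH stood at 3536, 3673 and 3599 CPM, ENO1 at 4518, 4819 and 4713, and LDHA, which makes lactate, at 1341, 1452 and 1418. HK3, a hexokinase, averaged 0.0328 CPM and LDHB 0.0178. Glycolysis had 22 of 27 genes at 1 CPM and took 1.55%, 1.63% and 1.62% of counts. Of 19 genes of gluconeogenesis and glycogen, 14 reached 1 CPM, with the glycogen phosphorylases PYGB at 191, 203 and 196 CPM and PYGL at 127, 130 and 130, and the liver glycogen synthase GYS2 listed at 0. Cholesterol synthesis was almost complete, with 21 of 22 genes at 1 CPM. INSIG1, which holds back the activation of its regulators, was listed at 0 in all 12 samples of the series. SCD, the stearoyl-CoA desaturase, stood at 1966, 1982 and 1965 CPM and FASN, the fatty acid synthase, at 1552, 1618 and 1566 CPM, and 23 of 24 genes of fat synthesis reached 1 CPM (ME1 was listed at 0 in all 12 samples). INSIG1 and ME1 are commonly expressed in this line, so their 0 is not read as absence. Fat oxidation had 23 of 27 genes on, led per length by ECHS1 (224, 223 and 216 CPM), with ACADL, FGF21 and PDK4 listed at 0.

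Genes that report on Wnt signalling were high. HepG2 is known to carry an activated beta-catenin. The Wnt antagonists DKK1 and NOTUM stood at 585, 599 and 596 and at 300, 284 and 287 CPM, CCND1, a cyclin, at 263, 250 and 249 CPM, and DKK4 at 42.9, 47.3 and 44.3 CPM. Of 22 genes 18 reached 1 CPM, and the Wnt inhibitor WIF1 was listed at 0.

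Iron, metal and redox genes were led by the ferritins. FTH1, the heavy chain, stood at 1067, 993 and 1048 CPM, TF, the plasma iron carrier, at 4446, 4432 and 4536 CPM, and HAMP, the iron hormone hepcidin, averaged 0.384 CPM. MT2A, a metallothionein that binds zinc, stood at 69.0, 64.4 and 59.3 CPM. NRF2 targets were at 1 CPM in 23 of 24 cases, among them PRDX1 at 643, 660 and 653 CPM and NQO1 at 787, 791 and 766 CPM. Hypoxia genes were on in 24 of 24 cases, with the glucose transporter SLC2A1 at 569, 589 and 581 CPM. Targets of p53 reached 1 CPM in 23 of 24 cases, with GDF15 at 120, 112 and 124 CPM.

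Genes of a dividing cell were on without exception. All 38 replication genes and all 35 genes of G2 and M phase reached 1 CPM in the 3 samples. PCNA, the polymerase clamp, stood at 333, 350 and 350 CPM and TYMS, of thymidylate synthesis, at 244, 266 and 258. TOP2A, which untangles chromosomes, stood at 400, 425 and 409 CPM. MKI67, a marker of cycling cells, was lowest in replicate 1, at 271 against 343 and 332 CPM. All 75 cytosolic ribosomal protein genes were on as well and took 5.56%, 5.41% and 5.34% of counts. Chaperones of the endoplasmic reticulum were high, led per length by CALR at 1738, 1726 and 1765 CPM and HSPA5 at 1445, 1649 and 1756 CPM. In the cytosol HSP90AB1 stood at 3469, 3632 and 3665 CPM, and HSPA6, which appears under heat stress, averaged 0.108 CPM.

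Most markers of other cells were under 1 CPM, with a few exceptions and apart from the cholangiocyte list. Every sample is the same cell line, so these values describe HepG2 cells themselves. In bulk samples, few cells with a high level and many with a low one cannot be told apart. Of 13 endothelial markers 2 reached 1 CPM, TIE1 at 2.33, 2.39 and 2.47 and PECAM1 at 1.02, 1.43 and 1.23 CPM, and KDR, TEK and CLEC4G were listed at 0. Of 18 macrophage and leukocyte markers 3 reached 1 CPM, and the pan-leukocyte marker PTPRC, CD163 and MARCO were listed at 0. LYZ, which encodes lysozyme, was the exception, at 1905, 1799 and 1818 CPM, and CD68, a lysosomal protein, stood at 56.1, 48.7 and 48.6 CPM. Exons of LYZ share 599 bases with AC020656.1 on the opposite strand (41.5 CPM), and whether reads were counted by strand is not given in the sources used here. Of 14 stellate and fibroblast markers 3 reached 1 CPM, the smooth-muscle genes TAGLN (133, 130 and 123 CPM) and ACTA2 (47.6, 53.5 and 55.1) and the receptor PDGFRB (3.56, 2.49 and 2.73), with the collagen gene COL1A2, DCN and LUM listed at 0. None of 14 erythroid markers and 2 of 16 neuronal and muscle markers reached 1 CPM, ACTA1 and CKM at means of 2.71 and 2.69 CPM. Cholangiocyte markers were on in 7 of 12 cases, with EPCAM at 317, 308 and 327 CPM, SPP1 at 252, 269 and 264 and KRT19 at 127, 134 and 128, while KRT7 and CFTR were listed at 0. The summed levels of the macrophage list were 0.197%, 0.186% and 0.190% of counts, nearly all from LYZ, and those of the endothelial list 0.000376%, 0.000460% and 0.000436%.

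**Figure D2:**
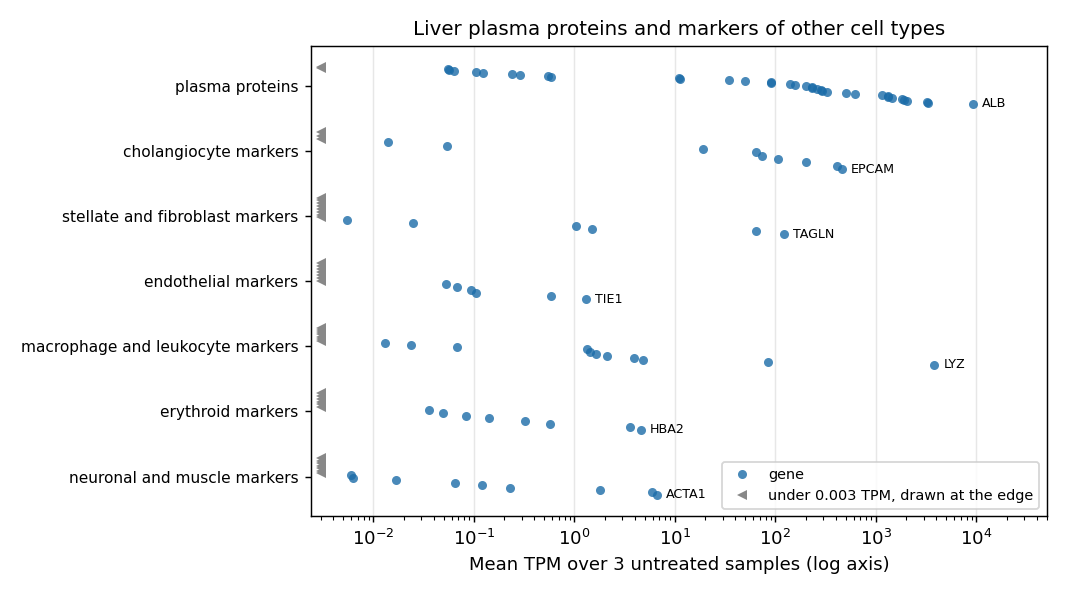
Mean TPM over the 3 untreated samples on a log axis for liver plasma proteins and the marker lists of 6 other cell types; each point is a gene, triangles at the left edge are genes under 0.003 TPM, and the highest gene of each list is named. Plasma proteins reach 9304 TPM (ALB), LYZ reaches 3828 TPM, and no endothelial, erythroid or neuronal and muscle marker passes 6.64 TPM (ACTA1).

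The 3 untreated samples lay close together over most genes. Among 13663 genes at a mean of 1 CPM or more, the median SD of log2 CPM was 0.0699, and the median coefficient of variation 4.85%. Replicates 2 and 3 were nearest to each other, with a median absolute difference of 0.06 on the log2 scale and 118 genes more than 2-fold apart. Replicate 1 differed from replicate 2 by a median of 0.10 with 156 such genes, and from replicate 3 by 0.09 with 174. As a description across genes, which are not independent, Pearson's r of log2 CPM was 0.986 for replicates 1 and 2, 0.983 for 1 and 3 and 0.988 for 2 and 3. Without replicate 1 the median SD was 0.0427, over 1.5 times lower, from SDs of 2 values. At equal spread, SDs of 2 values have a lower median than SDs of 3 values. edgeR's common dispersion over the untreated samples gave a biological coefficient of variation of 10.8%, against 9.17%, 8.96% and 9.91% at 10, 30 and 360 min. By the median SD of log2 CPM over the 13663 genes, 10 min spread most, at 0.0744. The other values were 0.0699 at 0 min, 0.0686 at 30 min and 0.0625 at 360 min.

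Spread was smaller at higher levels up to about 100 CPM. The SD expected from counting error alone had a median of 0.161 for the 1840 genes between 1 and 3 CPM, where 0.200 was measured. From 30 to 100 CPM the expected value was 0.0285 where 0.0512 was measured (4230 genes). For the 84 genes at 1000 CPM or more, such as ALB and GAPDH, it was 0.00528, and 0.0457 was measured. The measured medians come from SDs of 3 values, whose median lies below the true SD, so they run low beside the expected values. Above 100 CPM the measured median stayed between 0.0438 and 0.0457. Of 9657 genes at a mean of 10 CPM or more, 7923 (82.0%) had an SD under 0.1, and 171 had one over 0.25. Without replicate 1 there were 84, from SDs of 2 values.

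**Figure D3:**
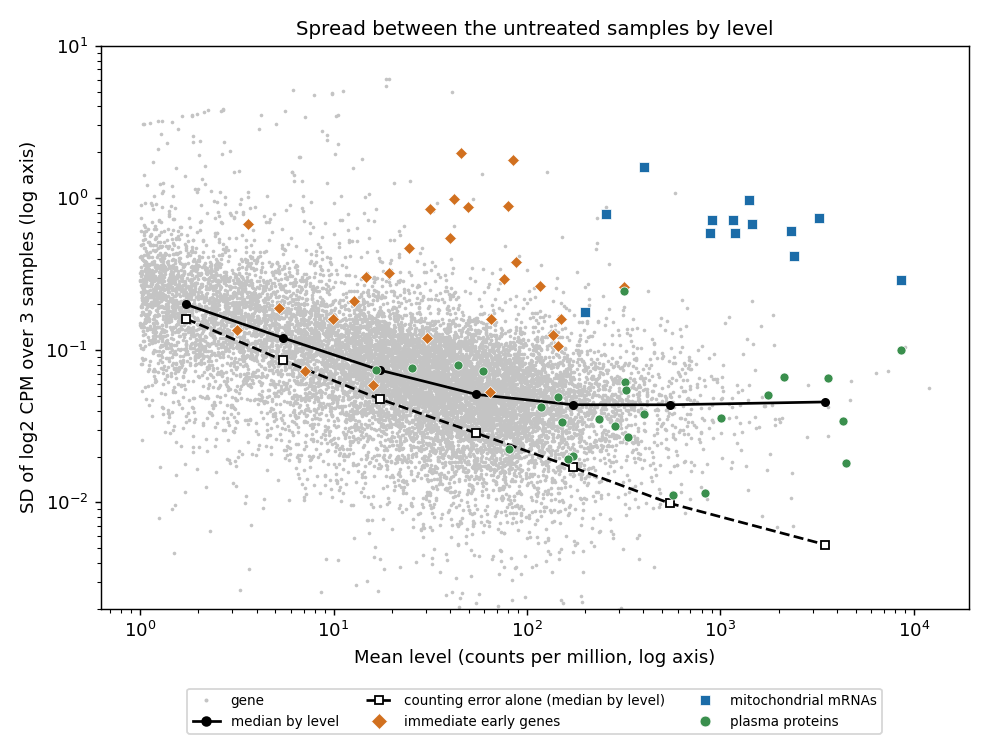
SD of log2 CPM over the 3 untreated samples against mean CPM for 13663 genes, both on log axes, with the median by level (solid line) and the median from counting error alone (dashed line), each drawn at the middle of its range. Plasma proteins (median SD 0.0381) lie around or below the solid line, while 15 of 27 immediate early genes and 12 of 13 mitochondrial mRNAs have an SD over 0.25.

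The steadiest genes at 10 CPM or more were IPO13, a nuclear import receptor (34.05, 34.08 and 34.07 CPM), A1BG, a plasma glycoprotein (12.07, 12.06 and 12.06), SLC47A1, DCAF1, a ubiquitin ligase adaptor (55.39, 55.43 and 55.48), and QPCTL, a glutaminyl cyclase (40.40, 40.46 and 40.45). Their SDs of 0.000495 to 0.00118 describe genes picked as the extremes of 9657, and are no test of stability.

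Of the 15 genes with the largest spread, 9 nuclear genes and MT-ATP8 shared exon bases with another gene expressed at 1 CPM or more. BLOC1S5-TXNDC5, a readthrough model, was counted at 56.0, 0 and 0 CPM, and TXNDC5, which shares 2658 of its 3030 exon bases, at 709, 811 and 778 CPM. Added together they came to 765, 811 and 778 CPM, with an SD of 0.0437. BEST1, a chloride channel gene that overlaps FTH1 on the opposite strand, was counted at 0.107, 91.1 and 31.7 CPM, and the sum with FTH1 at 1067, 1084 and 1080 CPM had an SD of 0.0118. A sum with a far higher partner has a small SD whatever the small gene does, so the partner's own SD is the value to set beside it. For TXNDC5 alone it was 0.0996 and for FTH1 alone 0.0538, both above that of the sum. The SD of GATD3B alone was 0.796 and with FP565260.2 added 0.0689, and that of WDR73 alone 0.467 and with SCAND2P added 0.0478. EIF3L went from 0.137 to 0.0660 with AL022311.1, DNAJC14 from 0.208 to 0.170 with AC023055.1 and PCBP2 from 0.0326 to 0.0239 with AC023509.1. NUDT3 went the other way, from 0.361 to 0.564 with RPS10-NUDT3, and so did MT-ATP6, from 0.972 to 1.10 with MT-ATP8. Only the partner with the most shared exon bases was added, so RPS10 was left out of the sum with RPS10-NUDT3. Over all genes at 10 CPM or more, 32.7% of 9648 annotated genes had an expressed overlapping partner, against 67.7% of the 167 annotated genes with an SD over 0.25. NBPF19, a member of a family of near-identical copies, had no count in replicate 1 and 31.2 CPM in replicate 3. The genes AL035461.3 and AC242842.3 are not in the annotation used here. MT-ATP8, FOS and FOSB are described below with their groups.

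Most genes of large spread set replicate 1 against the other two. Among the 171 genes at 10 CPM or more with an SD over 0.25, replicate 1 was the farthest sample in 115 (67.3%), 68 above and 47 below the others. Over all 9657 genes it was the farthest in 50.5%. By list, replicate 1 deviated most in the mitochondrial mRNAs, with a median of 1.17 above the mean of the other samples on the log2 scale, and in the immediate early genes, at -0.45. Smaller deviations were those of the nuclear-retained and snoRNA host RNAs (0.20, highest in replicate 1 in 11 of 14 genes), the cytochrome P450 list (0.11, highest in 9 of 17), the metallothionein list (0.10, highest in 4 of 9), the heat shock response (-0.11, lowest in 16 of 18), the cytosolic ribosomal proteins (0.07, highest in 55 of 75) and G2 and M phase (-0.07, lowest in 26 of 35). In the metallothionein list replicate 3 deviated more than replicate 1, at -0.14. Over all 13663 genes replicate 1 was highest in 5102 and lowest in 5684, with a median deviation of -0.01.

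**Figure D4:**
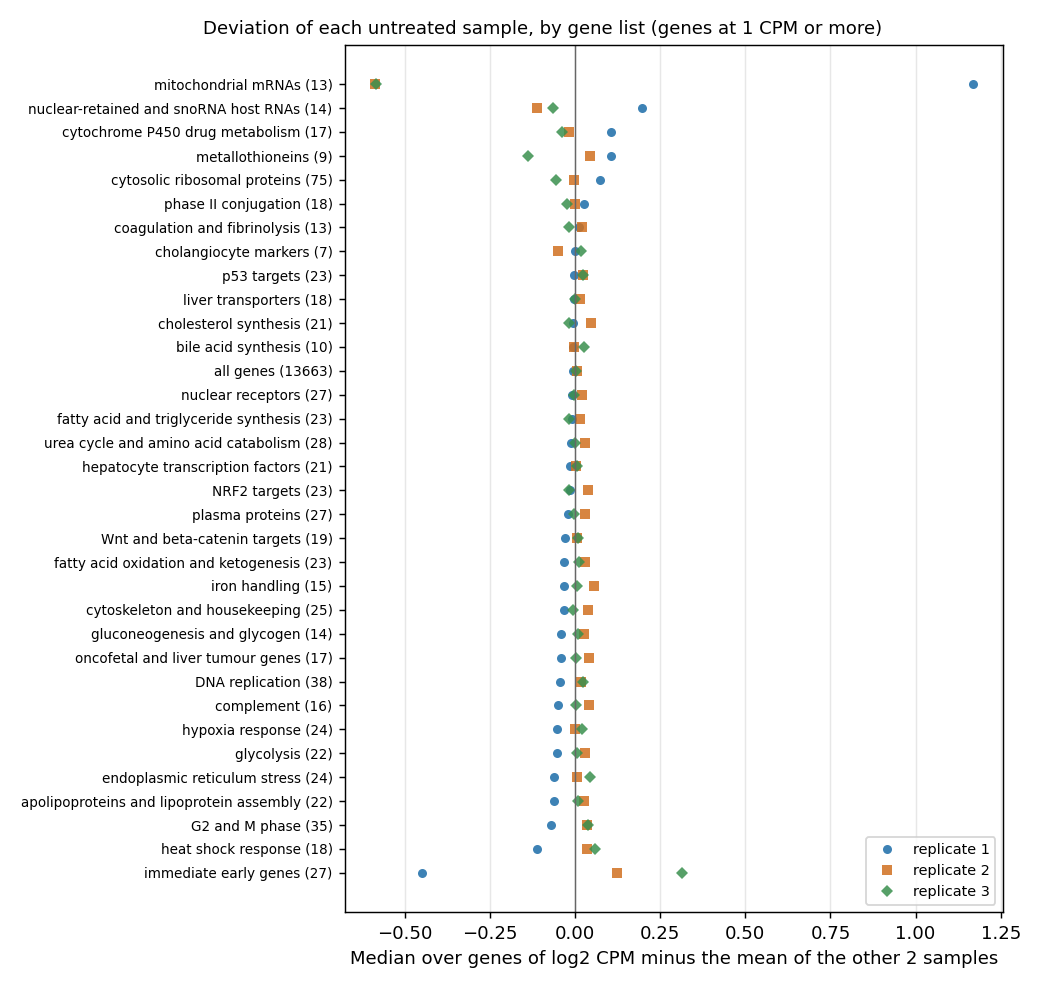
Median over the genes of each list of log2 CPM in a sample minus the mean of the other untreated samples, for lists with at least 5 genes at a mean of 1 CPM or more (number of genes in brackets). Replicate 1 lies at 1.17 for mitochondrial mRNAs and at -0.45 for immediate early genes, and most other lists lie near 0 in all 3 samples.

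The 13 mRNAs of the mitochondrial genome, which encode subunits of the respiratory chain and its ATP synthase, were all highest in replicate 1. MT-CO1, of cytochrome oxidase, stood at 10623, 7302 and 7804 CPM, and MT-CO2 at 3533, 1777 and 1648. MT-ND4, of complex I, stood at 5298, 2145 and 2208 CPM. The largest gap was that of MT-ATP8, at 927, 134 and 139 CPM, followed by MT-ATP6, at 2601, 796 and 824, whose reading frame overlaps it. MT-ND6, the mRNA of the other strand, differed least, at 228, 185 and 183 CPM. The mitochondrial ribosomal RNAs did not follow, with MT-RNR2 at 6767, 6227 and 6207 and MT-RNR1 at 738, 674 and 660 CPM. MTATP6P1, a nuclear copy of the MT-ATP6 region on chromosome 1, was counted at 380, 153 and 160 CPM, and how reads of the pair were assigned is uncertain. All 13 mRNAs together took 3.58%, 1.86% and 1.91% of counts. The exposed samples also spread, with MT-CO1 between 7140 and 11226 CPM, and the median SD of the 13 mRNAs was 0.674 at 0 min and 0.146, 0.427 and 0.516 at 10, 30 and 360 min. Without replicate 1 the untreated value was 0.0359, from SDs of 2 values. None of the 13 was called between untreated and exposed samples.

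Immediate early genes are switched on within minutes by growth factors, stress or handling, without new protein synthesis. In the untreated samples 27 of 36 were at 1 CPM or more, and replicate 1 was the lowest sample for 24 of the 27. FOS, a subunit of the AP-1 transcription factor (chromosome 14, 75278774 to 75282230, plus strand), stood at 14.1, 105 and 136 CPM. FOSB, of the same family (chromosome 19, 45467995 to 45475179), stood at 6.10, 55.5 and 75.1 CPM. JUN, their partner (chromosome 1, 58780788 to 58784327, minus strand), stood at 35.3, 95.6 and 108 CPM. In each case replicates 2 and 3 were near each other and well above replicate 1. EGR1, a zinc finger factor (chromosome 5, 138465490 to 138469315), followed with 14.8, 34.2 and 45.8 CPM, and DUSP1, a phosphatase that turns MAP kinases off (chromosome 5, 172768090 to 172771195, minus strand), with 16.9, 48.3 and 60.6 CPM. CCN1, a matrix protein gene, stood at 22.4, 58.2 and 68.3 CPM. Replicate 1 was not the lowest sample for IER3 (143, 134 and 155 CPM), FOSL1 (15.0, 11.6 and 11.7) and the antiproliferative gene BTG2. Of the 27 genes 15 had an SD over 0.25, and others lay close together, such as SRF (62.0, 66.7 and 65.0 CPM) and FOSL2 (15.3, 16.3 and 16.4). NR4A2, EGR3 and DUSP2 were at or under the floor. The list took 0.126%, 0.179% and 0.202% of counts, and its median SD of 0.263 compares with 0.0858, 0.123 and 0.10 for the same genes at 10, 30 and 360 min. Without replicate 1 the untreated value was 0.125, from SDs of 2 values, and 4 of the 27 genes had an SD over 0.25. The sample with the lowest immediate early genes was also the one with the highest mitochondrial share (4.39%), and the part of that share in these levels was not tested beyond the term given at the end.

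The promoters of FOS, FOSB, EGR1 and DUSP1 are shown because these genes moved together between the replicates and are known targets of CREB and of serum response factor. The windows run 5′ to 3′ at chr14:75278578-75278877, chr19:45467746-45468045 and chr5:138465229-138465528 on the plus strand and at chr5:172771146-172771445 on the minus strand (GRCh38.p14, RefSeq). Capitals mark the core of the cAMP response element, TGACGT, on either strand, and, in EGR1, also the CArG box bound by serum response factor.
FOS promoter: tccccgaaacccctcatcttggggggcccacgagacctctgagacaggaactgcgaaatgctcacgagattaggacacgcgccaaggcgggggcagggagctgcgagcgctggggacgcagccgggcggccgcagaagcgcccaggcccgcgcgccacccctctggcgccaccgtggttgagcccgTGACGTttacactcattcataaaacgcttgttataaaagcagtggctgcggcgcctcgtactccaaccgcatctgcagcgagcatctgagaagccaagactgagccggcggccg
FOSB promoter: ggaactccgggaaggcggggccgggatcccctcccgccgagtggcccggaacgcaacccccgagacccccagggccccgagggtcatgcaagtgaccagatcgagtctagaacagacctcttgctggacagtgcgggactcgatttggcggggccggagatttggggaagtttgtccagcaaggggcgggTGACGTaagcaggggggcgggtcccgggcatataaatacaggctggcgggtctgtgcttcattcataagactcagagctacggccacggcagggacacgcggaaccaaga
EGR1 promoter: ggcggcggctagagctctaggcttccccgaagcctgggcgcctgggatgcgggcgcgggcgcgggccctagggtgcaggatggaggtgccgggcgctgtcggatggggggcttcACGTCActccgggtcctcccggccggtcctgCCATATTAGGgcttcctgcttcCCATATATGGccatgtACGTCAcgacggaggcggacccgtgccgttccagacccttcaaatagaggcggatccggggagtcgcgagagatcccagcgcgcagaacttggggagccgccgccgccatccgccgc
DUSP1 promoter: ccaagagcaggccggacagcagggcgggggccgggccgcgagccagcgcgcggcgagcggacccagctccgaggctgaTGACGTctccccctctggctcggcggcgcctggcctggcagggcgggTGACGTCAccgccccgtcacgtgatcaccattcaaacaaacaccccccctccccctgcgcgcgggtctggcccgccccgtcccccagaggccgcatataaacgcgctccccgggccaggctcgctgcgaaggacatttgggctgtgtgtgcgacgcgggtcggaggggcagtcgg

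The core was present 1 time each for FOS and FOSB, 2 times for EGR1 and 3 times for DUSP1, where a pair of matches overlap on the 2 strands. It occurs in 10 of 26 immediate early genes with a window (38.5%), in 9.64% of all 27305 genes and in 14 of 59 cytosolic ribosomal protein genes (23.7%). The CArG box was present 2 times in the EGR1 window but absent from those of FOS, FOSB and DUSP1. It was found in 3 of the 26 genes (11.5%), against 1.60% of all genes. The JUN window held neither motif, which says only that these letters are not in those 300 bases. Binding was not measured, and whether these sites relate to the spread between replicates was not tested.

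Against the exposed samples, untreated cells differed most in the same immediate early genes. In edgeR's quasi-likelihood test of 0 min against the mean of the exposed groups, 104 of 17779 genes were called (0.585%, Benjamini-Hochberg adjusted p under 0.05), 80 higher in untreated cells (0.45%) and 24 lower (0.135%). For 133 genes (0.748%) all 3 untreated samples lay above or below all 9 exposed ones, and 25 of these were among the called. The filter on low counts left 31 of 36 immediate early genes, of which 19 were called higher and none lower, and 11 did not overlap. Their median log2 difference was 0.50, against 0.00 over all genes tested. The list was chosen with earlier results of these data known, so these shares are a description. Untreated and exposed samples also differ in time since the start of the exposure, and the effects of time and of 2,4-D cannot be told apart.

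Among called genes whose log2 CPM averaged 1 or more and whose untreated and exposed samples did not overlap, the largest differences were those of FOSB, 4.95 ± 0.45 (log2, SE; edgeR adjusted p = 0.00023), and FOS, 4.44 ± 0.42 (adjusted p = 0.00029). FOSB was at most 4.12 CPM and FOS at most 12.97 CPM in any exposed sample, so that replicate 1, at 6.10 and 14.1 CPM, was just above the highest of them. CCN1 differed by 1.89 ± 0.21 (adjusted p = 0.0012), EGR1 by 1.79 ± 0.25 (0.0056), DUSP1 by 1.75 ± 0.23 (0.0041) and JUN by 1.71 ± 0.21 (0.0025). PPP1R15A, of stress recovery, differed by 1.10 ± 0.16 (0.0063) and the zinc finger factor KLF6 by 0.74 ± 0.10 (0.0041). The test takes 1 spread per gene for all groups, so these SEs and p-values understate the spread of the untreated samples. That spread, as the SD of log2 CPM, was 1.97 for FOSB and 1.79 for FOS. KLF4, left out of these 8 by its low level (1.95, 4.28 and 4.62 CPM), differed by 2.02 ± 0.25 (adjusted p = 0.0023), and NR4A1, whose groups overlapped, by 0.76 ± 0.13 (adjusted p = 0.027). Without replicate 1 the log2 fold change of FOSB, untreated minus exposed, was 5.46 (edgeR adjusted p = 4.1e-09), and the log2 fold change of FOS, untreated minus exposed, was 4.93 (adjusted p = 1.0e-08). The smaller p-values there come with the untreated sample of lowest FOS and FOSB left out. These 8 genes were named only if untreated and exposed samples did not overlap, so that replicate 1 had to lie above every exposed sample. DUSP1 stood at 16.9 CPM in replicate 1 and between 16.5 and 16.7 at 10 min. With replicate 1 as the lone untreated sample, an alternative added after seeing the data that assumes it varies like the other groups, 3 immediate early genes were called. They were FOSB (log2 difference 2.05, edgeR adjusted p = 0.018), FOS (1.83, adjusted p = 0.039) and IER3 (0.62, adjusted p = 0.0072).

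**Figure D5:**
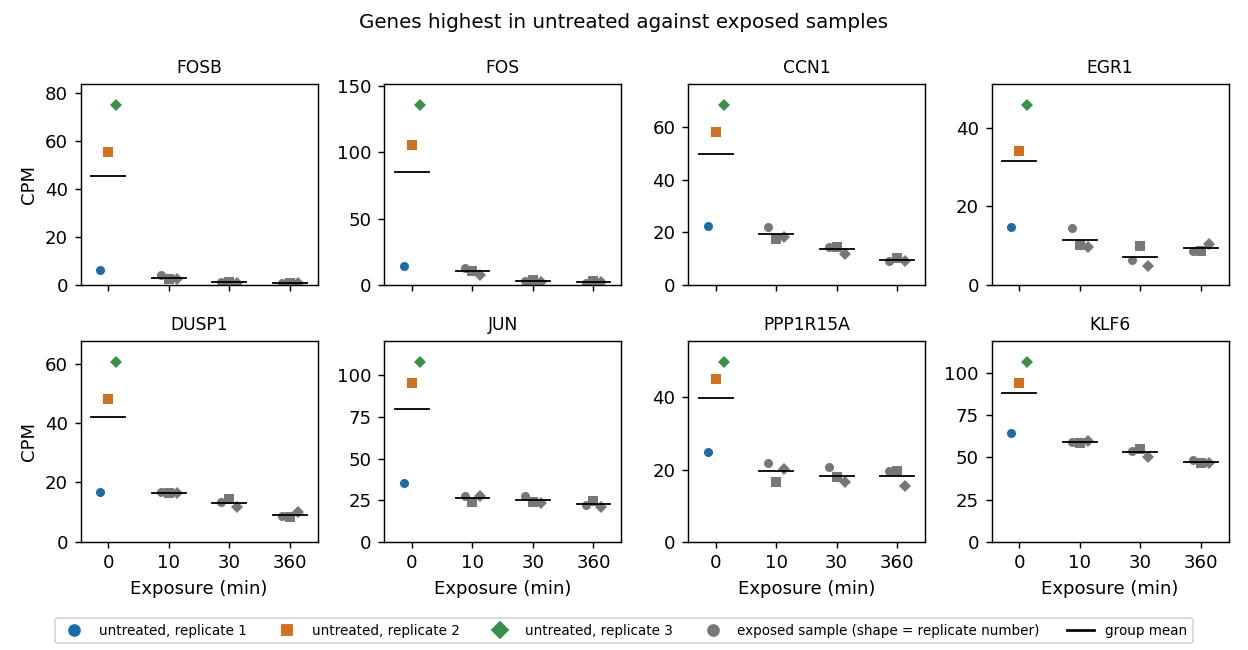
CPM by exposure time of the 8 called genes with the largest differences higher in untreated cells among those whose log2 CPM averaged 1 or more and whose untreated and exposed samples did not overlap; each point is 1 sample (circle, square and diamond for replicates 1, 2 and 3, coloured at 0 min and grey in exposed groups) and bars are group means. Untreated replicates 2 and 3 lie well above the rest, and replicate 1 lies close to the 10 min samples, as in DUSP1 (16.9 against 16.5 to 16.7 CPM).

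IER3, which protects cells from apoptosis, differed in another way. The untreated samples agreed at 143, 134 and 155 CPM, the 30 min samples lay between 50.2 and 58.1, and the 360 min samples, between 141 and 158 CPM, overlapped the untreated ones (log2 difference to the mean of the exposed 0.64 ± 0.05, edgeR adjusted p = 6.1e-05). Its exons share 359 bases with IER3-AS1 on the opposite strand (5.08 CPM). MYC (0.07 ± 0.04, adjusted p = 0.56) and JUND (0.05 ± 0.05, adjusted p = 0.80) did not pass.

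Fewer genes were lower in untreated cells, and by smaller amounts. DHRS2, a short-chain dehydrogenase (chromosome 14, 23630115 to 23645639, plus strand), stood at 543, 535 and 528 CPM untreated and between 616 and 776 CPM in the exposed samples (-0.34 ± 0.02, edgeR adjusted p = 4.7e-05). EIF5, a translation initiation factor, stood at 183, 172 and 170 against 196 to 237 CPM (-0.29 ± 0.03, adjusted p = 0.00085). TAB3, an adaptor of the kinase TAK1, stood at 83.2, 83.9 and 83.1 against 85.1 to 106 CPM (-0.14 ± 0.02, edgeR adjusted p = 0.013). Its means were 86.4, 85.4 and 105 CPM at 10, 30 and 360 min, so it differed mainly at 360 min. DHRS2 was called under all 20 alternatives that retest genes, EIF5 under 19 and TAB3 under 16. The other five, MYL5, LINC00574, SLC44A5, ZMAT2 and the glucose-6-phosphate transporter SLC37A4, had adjusted p between 0.036 and 0.05 and were called under 3 to 8 of them. SLC44A5 also differed mainly at 360 min, with means of 20.2, 20.8 and 26.3 CPM at 10, 30 and 360 min against 19.2 untreated. MYL5, LINC00574 and SLC37A4 share exon bases with a gene on the opposite strand, and ZMAT2 with HARS2 on the same strand.

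Few genes of liver function were called, as of all genes. Of the 4 origin markers none was called, with log2 differences of -0.05 ± 0.03 for ALB, -0.16 ± 0.04 for APOB, -0.07 ± 0.04 for AFP and -0.13 ± 0.04 for FGB (edgeR adjusted p = 0.61, 0.084, 0.56 and 0.20). APOB passed under 4 of 20 alternatives, and the other three under none. No member was called among 31 plasma protein, 24 lipoprotein, 15 clotting, 17 complement and 75 ribosomal protein genes, against 0.585% of all genes tested, a share that gives under 1 call in lists of this size. Of 22 hepatocyte transcription factors 1 was called (TBX3, higher), of 29 nuclear receptors 1 (NR4A1, higher), of 13 bile acid genes 1 (KLB, lower), of 17 genes of gluconeogenesis and glycogen 1 (SLC37A4, lower) and of 21 genes of cholesterol synthesis 2, both lower. Called members of other lists included ID1, a target of BMP signalling (179, 211 and 218 CPM; 0.70 ± 0.05, adjusted p = 4.1e-05), the vitamin D hydroxylase CYP24A1 (0.60 ± 0.06, adjusted p = 0.00037), and, lower in untreated cells, the cholesterol synthesis gene HMGCS1 (-0.18 ± 0.03, adjusted p = 0.034). Of 24 hypoxia genes 4 were called higher, namely ADM, SLC2A1, DDIT4 and BHLHE40 (0.19 to 0.55), against 0.45% of all genes, while the median difference of the list was -0.02. These were named after their values were seen.

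The number of called genes depended on single samples. It was 86 without untreated replicate 1, 39 without replicate 2 and 31 without replicate 3, and for immediate early genes 18, 9 and 8. It was 61 and 66 without 10 min replicate 2 or 3, 65 without 30 min replicate 3, and 64 and 60 without 360 min replicate 1 or 2. With a term for the mitochondrial share above or below 3%, added after seeing the data, 65 genes were called, 13 of them immediate early genes. DESeq2 called 296 genes, 190 higher and 106 lower, and 101 of the 104 were among them.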

How the data were processed

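Counts per gene were deposited by the authors as 1 table of whole numbers for 12 HepG2 samples, of which the 3 untreated ones are described. HISAT2, DESeq2 and GRCh38 are named, without version or role, in the submitters' processing notes. For the counting program, the annotation and the strand setting the answer is: not given in the sources used here. Of 60612 gene identifiers, 58394 matched GENCODE 29, which gave positions, types, exon lengths and overlaps, and they held 99.9% of untreated counts. No column was left without a sample.

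CPM were computed with TMM factors from all 12 samples (1.003, 1.004 and 1.012 for the untreated), log2 CPM with a prior count of 2. TPM (transcripts per 1000000) used the summed exon length and no TMM factor. Spread is the SD of log2 CPM. Counting error was taken as the square root of the mean of 1 over the count, divided by the natural log of 2. Untreated samples were tested against the mean of the exposed groups with edgeR 4.0.16 (quasi-likelihood, filterByExpr, all 12 samples, two-sided, Benjamini-Hochberg over all 17779 genes, threshold 0.05) in R 4.3.3. The test was run on simulated data with known answers. The labels call the replicates biological.

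The samples, the 38 gene lists and the rules were chosen with earlier results of these data known. Named genes are the 4 markers, the 15 highest by TPM, in each list up to 4 of the highest and 3 of the lowest TPM and 3 of the largest SD, the 15 largest and 5 smallest SDs at 10 CPM, and the 8 called genes with the largest change in each direction (mean log2 CPM of at least 1, no overlap between untreated and exposed). Genes from a list outside this rule were chosen after their values were seen. Alternatives were other scalings, filters, thresholds, thinning, DESeq2 1.42.0, a replicate block and leaving out each sample. The spread of gene groups without untreated replicate 1 was an alternative added after seeing the data. Promoters come from RefSeq. Some list members are not reported here.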

Additional observations from a re-analysis of the deposited data

How the results depend on the processing

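The number of genes at 1 CPM or more in all 3 untreated samples was 13266, and between 13246 and 13274 under other scalings and with counts thinned to the smallest untreated total. It was 14488 at 0.5 CPM, 9496 at 10 CPM and 13370 to 13399 with a sample left out. The median SD of log2 CPM between untreated samples was 0.0699 and lay between 0.0676 and 0.0727 under other scalings, a prior count of 0.5, thinning and genes with no shared exon base (6540 genes, added after seeing the data). It was 0.129 with no filter (22389 genes), 0.0551 at a mean of 10 CPM and 0.0427 to 0.0674 with a sample left out. For untreated against the mean of the exposed groups, genes called numbered 31 to 94 with any 1 of the 12 samples left out. There were 37 calls at a threshold of 0.01, 296 with DESeq2, 65 with the mitochondrial term and 34 with replicate 1 as the lone untreated sample (12 shared with the 104). Other scalings gave 104 and 108, no filter 80, and the stricter filter 124. Immediate early genes called higher in untreated numbered 8 to 18 with a sample left out, 3 with replicate 1 alone and 13 to 20 under the other settings. The replicate block gave 85 calls, 75 of them shared with the 104. Deviations of same-numbered samples correlated at -0.054 to 0.099 (18 pairs, median 0.027, none over 0.1). Those of samples with other numbers correlated at -0.115 to 0.092 (36 pairs, median -0.019). Correlations this weak over the genes tested cannot decide whether equal numbers mark a pairing, and the main test used none. For the 16 genes named against the exposed groups, 232 of 320 repeats kept the call, 88 lost it and none changed sign. Depth limits statements on genes under about 3 CPM, where counting error was largest.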
